A study of Mus musculus with 12 samples.

Results

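The 9 genes described here were listed together for their links to osteocyte dendrites and the cortical cytoskeleton. They were measured in Ocy454 cells, a mouse line derived from long bone osteocytes. They are a list of gene names, Pdpn, Gja1, Cd44, Fscn1, Lcp1, Ezr, Msn, Capg and Destn, or 9 of the 37583 gene IDs counted. All 9 were found by Ensembl mouse gene ID in every library, Destn under its current symbol Dstn. Of the 9, 8 passed the filter on low counts and were tested among 14904 genes, and the remaining member, Lcp1, is given by its counts. RNA-seq covered 12 libraries in 4 groups of 3 replicates. Control cells are labelled as the original cells, and DKO cells as cells in which HDAC4 and HDAC5, both class IIa histone deacetylases, were deleted. Both genotypes were studied static and under shear stress from fluid flow (FFSS), with 3 h as the labelled time in all groups. Per the study's methods, all experiments began from a single sub-clone of Ocy454, and the line carries a temperature-sensitive T antigen that is inactivated before use. FFSS was produced by orbital rotation of the dishes. Gene deletion with lentiviral Cas9 and guide RNAs is described, with control cells that received a lentivirus with no guide. That passage centres on deletion of focal adhesion kinase, and HDAC5-deficient cells are cited to an earlier study. Whether the control cells of these libraries received such a virus is not stated. Whether the DKO cells were 1 clone or a bulk population, and whether the replicates came from separate cultures, is not given in the sources used here, so p-values measure the spread between these libraries, which may be technical.

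Osteocytes sit in small cavities of mineralised bone and reach each other and the bone surface through long dendrites, across which moving fluid exerts shear. The dendrites are filled with bundled actin and are joined at their tips by gap junctions. Podoplanin (Pdpn, also called E11) is a membrane glycoprotein that marks the cell as it turns into an osteocyte and is needed for dendrites to lengthen, and its cytoplasmic tail binds ezrin and moesin. CD44 (Cd44) is the receptor for hyaluronan and also binds osteopontin and podoplanin. Connexin 43 (Gja1) is the main gap junction protein of osteocytes. Ezrin (Ezr) and moesin (Msn) tie membrane proteins to the actin cortex. Fascin (Fscn1) and L-plastin (Lcp1) bundle actin filaments, CapG (Capg) caps their growing ends, and destrin (Destn) severs them and takes actin from them.

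All 9 are protein-coding genes. In the mm9 build, to which the reads were aligned, Pdpn (ENSMUSG00000028583) spans chr4:142857334-142889467 on the minus strand, Cd44 (ENSMUSG00000005087) chr2:102651298-102741822 on the minus strand and Gja1 (ENSMUSG00000050953) chr10:56097106-56110225 on the plus strand. Ezr (ENSMUSG00000052397) spans chr17:6942390-6987133 on the minus strand and Msn (ENSMUSG00000031207) chrX:93291381-93363891 on the plus strand. Fscn1 (ENSMUSG00000029581) lies at chr5:143722022-143734864, Lcp1 (ENSMUSG00000021998) at chr14:75530908-75630649, Capg (ENSMUSG00000056737) at chr6:72494385-72512977 and Destn (ENSMUSG00000015932) at chr2:143741056-143769060, all on the plus strand. Reads were counted per gene over all exons, so the values do not separate the 14 annotated transcripts of Cd44 or the 2 of Pdpn. Other genes overlap Cd44, Lcp1, Ezr and Msn, and none of these had more than 1 count in a library.

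The stretches just before the start sites are shown for some of the members. Pdpn, Ezr, Msn and Fscn1 moved most closely together across the libraries (Pearson r of at least 0.93 for each pair). Cd44 moved against them between genotypes, and Gja1 correlated negatively with all 4 over the libraries. Capg also moved with these 4 (r = 0.78 to 0.89) but is not shown. These correlations hold the differences between groups, and with group means removed Fscn1 and Pdpn were at 0.23. Each line holds the 160 bases that end at the start site, from the RefSeq promoter table of the GRCm38.p6 build, so these coordinates are not those of mm9. All 9 members matched that table. Capitals mark matches, on either strand, to AP-1 (TGANTCA), CRE (TGACGTCA), the HIF core (ACGTG) and the GC box (GGGCGG).
Pdpn (chr4:143299565-143299724, minus strand): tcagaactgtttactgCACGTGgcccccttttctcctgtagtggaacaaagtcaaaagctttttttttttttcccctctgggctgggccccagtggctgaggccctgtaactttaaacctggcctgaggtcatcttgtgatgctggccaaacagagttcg
Ezr (chr17:6782781-6782940, minus strand): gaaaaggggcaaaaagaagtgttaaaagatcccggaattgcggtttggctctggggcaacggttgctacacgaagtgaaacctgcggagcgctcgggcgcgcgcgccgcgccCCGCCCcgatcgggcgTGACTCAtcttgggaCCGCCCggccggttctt
Msn (chrX:96095885-96096044, plus strand): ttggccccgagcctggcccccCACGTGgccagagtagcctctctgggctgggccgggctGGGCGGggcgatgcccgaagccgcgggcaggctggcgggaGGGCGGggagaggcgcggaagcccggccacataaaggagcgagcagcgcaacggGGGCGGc
Fscn1 (chr5:142960195-142960354, plus strand): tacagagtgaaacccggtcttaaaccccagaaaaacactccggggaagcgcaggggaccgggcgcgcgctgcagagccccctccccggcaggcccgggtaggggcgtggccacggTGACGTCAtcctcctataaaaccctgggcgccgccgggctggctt
Cd44 (chr2:102901666-102901825, minus strand): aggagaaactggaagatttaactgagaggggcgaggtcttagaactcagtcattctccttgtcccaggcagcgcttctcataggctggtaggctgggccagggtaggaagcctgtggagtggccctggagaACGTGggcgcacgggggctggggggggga
Gja1 (chr10:56377140-56377299, plus strand): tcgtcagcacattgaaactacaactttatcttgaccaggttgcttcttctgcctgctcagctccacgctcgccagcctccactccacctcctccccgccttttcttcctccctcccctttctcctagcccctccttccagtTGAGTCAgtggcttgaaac

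The AP-1 letters stood 19 bases before the start of Gja1 and 32 bases before that of Ezr. Of 32851 promoters, 6.75% held this motif within the 250 bases before the start site. The CRE letters stood 45 bases before the Fscn1 start, against 1.55% of promoters. The HIF core was found before Pdpn, Msn, Cd44 and Lcp1, and 16.6% of promoters held it, and the GC box before Ezr, Msn, Lcp1 and Destn, against 32.7%. The letters overlap where CACGTG reads the same on both strands, as in Pdpn and Msn. GGAATG, the TEAD motif, was found before 1 of 2 listed Lcp1 starts and in 12.6% of promoters. The SRF CArG box (1.47% of promoters) and the MEF2 motif (2.92%) were searched by name and matched in 0 of the 9 members. The GC content of these 250 bases was 43.2% for Pdpn and 71.6% for Msn. A match is a description of letters, and its part in the levels was not tested.

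Libraries held between 17.6 and 19.2 M reads assigned to genes, at which the floor of 3 counts is 0.146 to 0.178 counts per M reads (CPM) of the TMM-scaled total. The RNA of the targeted genes was lower in static cells labelled DKO but was not absent. RNA counts do not show whether the proteins were lost. The longer of the 2 Hdac4 IDs was at 23.8 to 29.1 CPM in control static and 12.1 to 16.9 CPM in DKO static libraries (log2 ratio −0.85, edgeR adjusted p = 0.000102), and at 30.7 to 42.6 against 12.7 to 14.0 CPM under FFSS (−1.48, edgeR adjusted p = 5.65e-07). The other Hdac4 ID was lower by log2 ratios of −0.39 and −0.50 (edgeR adjusted p = 0.0281 and 0.00638). Hdac5 was at 127 to 141 and 80.1 to 90.7 CPM (−0.65, edgeR adjusted p = 7.94e-06), but under FFSS at 71.1 to 90.1 CPM in control and 92.3 to 93.2 CPM in DKO libraries (0.19, edgeR adjusted p = 0.0512). The osteocyte markers Dmp1, Phex, Mepe, Sost and Fgf23 summed to 48.8 to 89.8 CPM in control static, 20.7 to 144 CPM in control FFSS and 3594 to 4015 CPM in all DKO libraries. Chondrocyte markers summed to 2004 to 2947 CPM in DKO and 52.1 to 105 CPM in control cells, mostly through Col2a1 and Col10a1, while Acan (5.96 and 4.97 CPM on average in control and DKO static cells) and Matn3 (1.09 and 1.10 CPM) did not pass the test. Osteoblast markers summed to 19614 to 23650 CPM in control static and 58238 to 65648 CPM in DKO static libraries, and to 6452 to 19829 against 60442 to 62517 CPM under FFSS. Epithelial markers went the other way, with Pdpn, at 23.4 to 25.2 CPM in control static and 4.83 to 6.43 CPM in DKO static libraries and 15.9 to 20.7 against 5.59 to 5.83 CPM under FFSS. That sum was mostly Krt14 (23.7 ± 0.654 and 5.05 ± 0.815 CPM in static cells), with Epcam at 0 counts in control static libraries. Endothelial markers were at most 1.02 CPM. The part of these cell-type markers in the results was not tested. Control FFSS replicate 1 stood apart from the other 2 control FFSS libraries. Its counts differed from theirs with a chi-square per degree of freedom of 63.8 and 58.0, against 6.45 between the other two, and 5.87% of its reads lay outside genes, against 9.19% and 10.04% in replicates 2 and 3. Control static libraries had 5.10 to 5.21% of reads outside genes, DKO static libraries 7.07 to 7.14% and DKO FFSS libraries 7.93 to 8.55%. Where leaving out control FFSS replicate 1 changed a call for a member, the value without it is given as well. Such a fit holds 2 control FFSS libraries. The library was singled out from these same counts, so p-values without it are descriptions only. In bulk RNA, fewer cells making a transcript and less transcript per cell cannot be told apart.

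The first question was whether the level of these genes differed between the genotypes. In these comparisons genotype cannot be told apart from other differences between the control and DKO cell lines. In static cells Pdpn, Fscn1, Ezr, Msn and Capg were lower in DKO cells, Cd44 was higher, and Gja1 and Destn did not pass the test. With edgeR, 5 of the 8 members tested were lower and 1 was higher at an adjusted p under 0.05, against 27.2% of all tested genes lower and 27.0% higher. Pdpn was the 1 member called, that is, past the test and over 2-fold, against 15.3% of all tested genes. Under FFSS the same 5 members were lower and the same 1 higher, against 29.6% and 27.0% of all tested genes, and Pdpn and Ezr were called, against 17.2%. The median log2 difference of the members was −0.45 in static cells and −0.63 under FFSS, beside 0.01 and −0.05 over all tested genes.

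**Figure D1:**
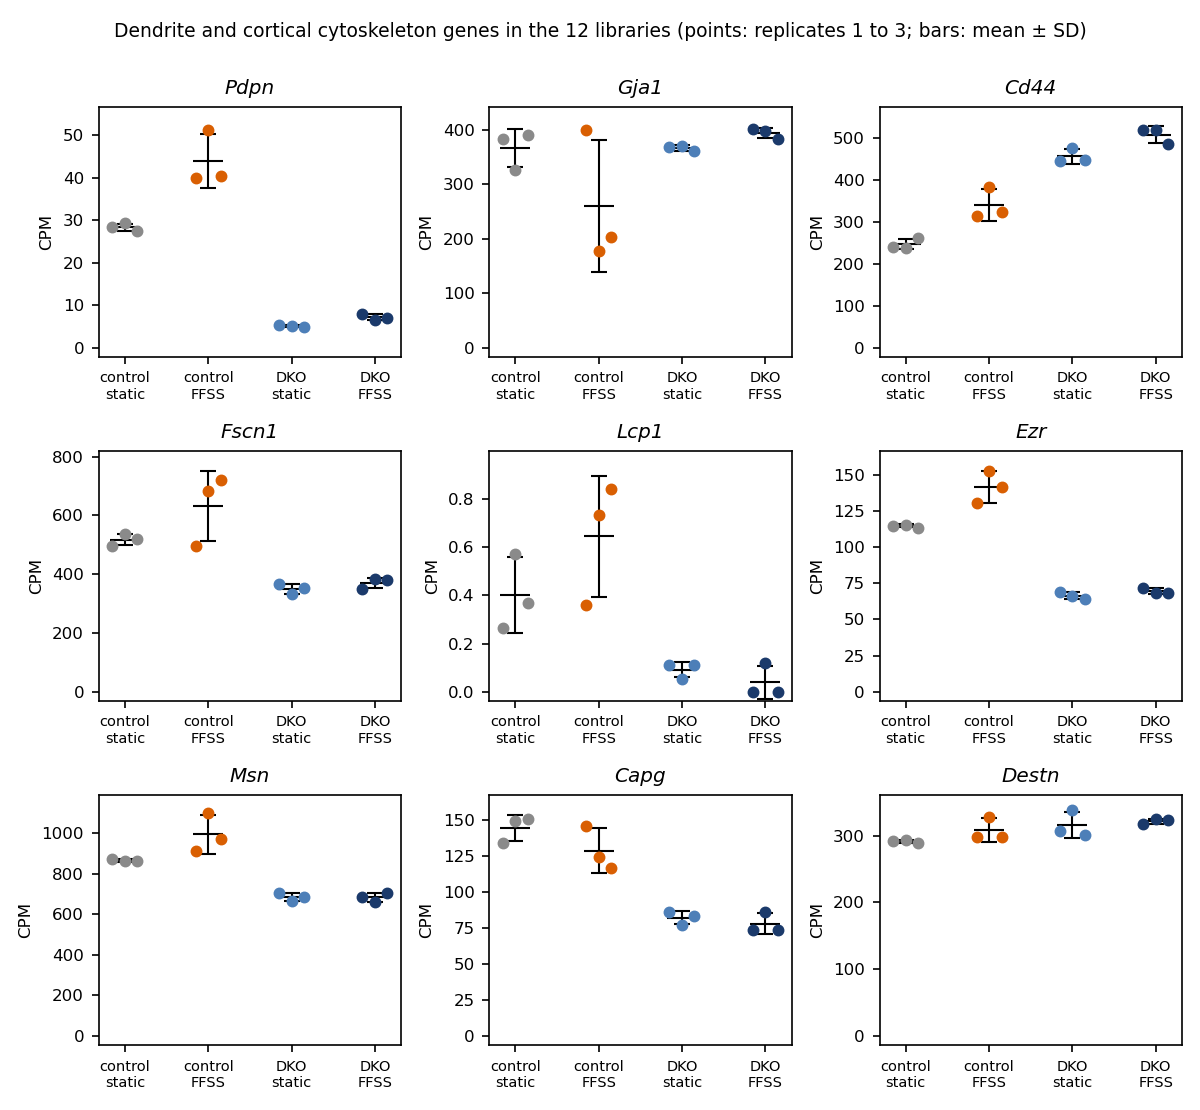
CPM of each member in the 12 libraries, by group, with points for replicates 1 to 3 in order and bars for the mean ± SD (n = 3). Pdpn lies between 27.6 and 51.2 CPM in control cells and between 4.997 and 7.96 CPM in DKO cells, and Cd44 runs the other way.

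Pdpn showed the widest gap between the genotypes of the 8 members tested. It was at 28.3, 29.3 and 27.6 CPM in control static replicates 1 to 3 and at 5.28, 5.05 and 4.997 CPM in DKO static replicates 1 to 3. The groups did not overlap, and the level in DKO cells was 5.55-fold lower (log2 ratio −2.47, SE 0.11, edgeR adjusted p = 8.57e-10). Under FFSS Pdpn was at 40.1, 51.2 and 40.4 CPM in control and 7.96, 6.60 and 6.93 CPM in DKO cells, 6.12-fold lower (log2 ratio −2.61, SE 0.11, edgeR adjusted p = 3.29e-10). Every DKO library lay below every control library in both conditions. The osteocyte markers named by rule went the opposite way in static cells, with log2 differences of 4.31 for Dmp1, a matrix protein of the osteocyte, 4.87 for Phex, an enzyme of phosphate handling, 7.06 for Mepe, a matrix glycoprotein, and 8.59 for Sost, which encodes sclerostin (edgeR adjusted p between 1.33e-10 and 0.000622). All 4 markers lay higher in all 3 DKO than in all 3 control libraries.

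Cd44 was higher in DKO cells. It was at 241, 238 and 261 CPM in control static and 444, 476 and 447 CPM in DKO static libraries, with no overlap (1.85-fold, log2 ratio 0.89, SE 0.07, edgeR adjusted p = 2.50e-07). Under FFSS it was at 313, 383 and 323 CPM in control and 519, 518 and 484 CPM in DKO libraries, again with no overlap (1.49-fold, log2 ratio 0.58, edgeR adjusted p = 1.40e-05). Podoplanin and CD44, which bind each other, therefore differed between the genotypes in opposite directions. Spp1, which encodes the CD44 ligand osteopontin, was 1 of the 3 other pathway genes named by rule and was higher in DKO cells by 2.31 in static cells and 2.28 under FFSS on the log2 scale (edgeR adjusted p = 1.65e-09 and 1.87e-09). In static cells its mean CPM was 810.3 ± 40.2 in control and 4017 ± 201 in DKO cells (SD, n = 3).

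Both members that tie the membrane to the actin cortex were lower in DKO cells. Ezr was at 115, 115 and 113 CPM in control static and 68.9, 66.3 and 64.3 CPM in DKO static libraries (log2 ratio −0.78, SE 0.06, edgeR adjusted p = 1.19e-07). Under FFSS it was at 130, 153 and 142 CPM against 72.0, 68.1 and 68.4 CPM, a 2.04-fold lower level (log2 ratio −1.03, SE 0.06, edgeR adjusted p = 8.59e-09). Neither comparison overlapped. Msn was at 874, 862 and 864 CPM in control static and 704, 666 and 686 CPM in DKO static libraries (log2 ratio −0.34, SE 0.07, edgeR adjusted p = 0.000579), and at 912, 1101 and 974 CPM against 684, 662 and 707 CPM under FFSS (log2 ratio −0.54, edgeR adjusted p = 9.18e-06). The groups were apart in both conditions. Rdx, the third gene of the family, encodes radixin and had a log2 difference of −0.10 in static cells (edgeR adjusted p = 0.189), with overlapping groups, and was lower in DKO than in control cells under FFSS, at a log2 difference of −0.15 (edgeR adjusted p = 0.043).

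Levels per kilobase of exon, taken over all annotated exons of a gene, allow a rough comparison between genes. By this measure moesin was the most abundant of the 3 in every group. It made up 58.3 ± 0.259% of their summed level in static and 61.0 ± 1.36% in FFSS control cells, and 57.7 ± 1.58% in static and 59.7 ± 0.256% in FFSS DKO cells (SD, n = 3). The share of ezrin was 14.7 to 15.1% in control static and 10.5 to 11.1% in DKO static libraries, and 16.4 to 17.1% against 11.1 to 12.02% under FFSS, without overlap. The share of radixin was 26.9 ± 0.444% in control static and 31.5 ± 1.74% in DKO static cells. The make-up of the family thus held less ezrin in DKO cells while moesin stayed the most abundant.

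**Figure D2:**
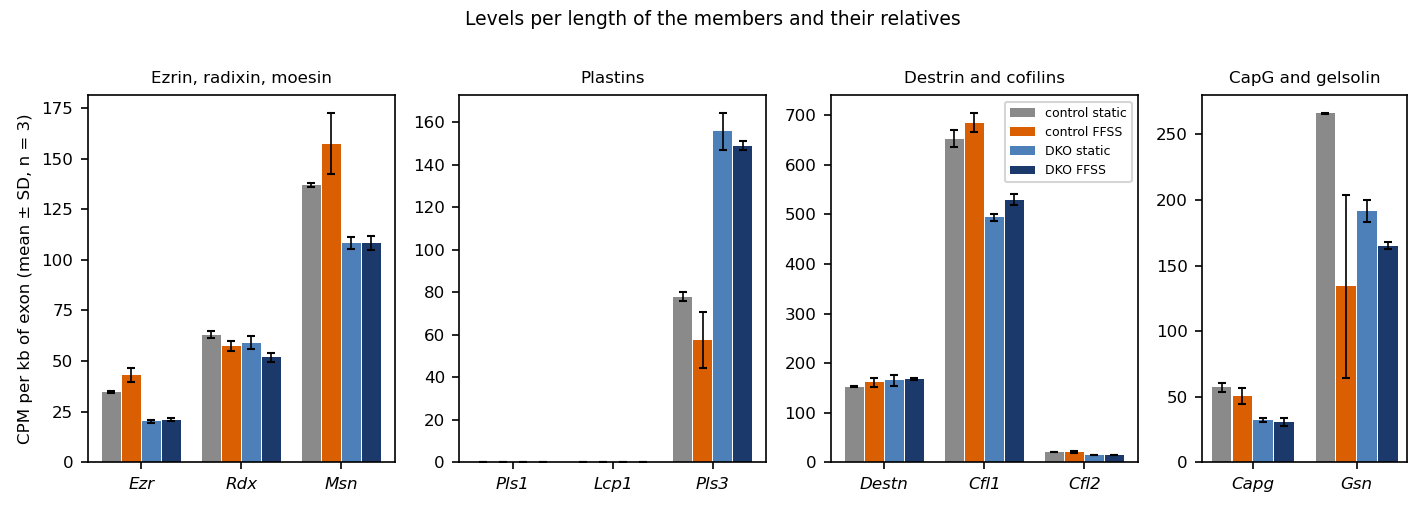
Level in CPM per kilobase of exon (bars: mean of 3 libraries, error bars: SD) for the members and their close relatives in each group. In DKO cells ezrin, moesin, CapG and cofilin (Cfl1) are lower and T-plastin (Pls3) is higher, while L-plastin (Lcp1) is too low to be seen at this scale.

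Of the actin bundlers, Fscn1 was at 497, 537 and 519 CPM in control static and 367, 332 and 352 CPM in DKO static libraries, without overlap (log2 ratio −0.56, SE 0.11, edgeR adjusted p = 0.000553). Under FFSS it was at 496, 683 and 719 CPM in control and 350, 383 and 379 CPM in DKO libraries, again without overlap (log2 ratio −0.77, SE 0.11, edgeR adjusted p = 3.85e-05). It was nearly all of the fascin measured, with 99.6 to 99.9% of the level per kilobase summed over Fscn1, Fscn2 and Fscn3 as the group means. Lcp1 was close to the limit of detection. Its counts were 5, 11 and 7 in static and 7, 15 and 17 in FFSS libraries of control cells, but 2, 1 and 2 in static and 0, 2 and 0 in FFSS libraries of DKO cells, and the 2 libraries at 0 kept it out of the test. Summed over 3 libraries and scaled to their totals, control cells held 4.38 times the Lcp1 of DKO cells in static conditions (95% interval 1.63 to 14.8) and 17.1 times under FFSS (4.43 to 146), where the interval covers counting error only. In a fit with no low-count filter, which took in 24360 genes, Lcp1 was lower in DKO cells in static conditions (edgeR adjusted p = 0.0208) and under FFSS (edgeR adjusted p = 0.0001).

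L-plastin is the plastin of white blood cells, and T-plastin (Pls3) that of most other tissues. Pls3 held between 99.5% and 99.9% of the plastin level per kilobase as the mean of each group. Pls3 was higher in DKO cells, at 330.4 ± 9.02 CPM in control static and 660 ± 37.3 CPM in DKO static cells (log2 difference 1.00, edgeR adjusted p = 1.37e-05) and by 1.37 under FFSS (edgeR adjusted p = 8.45e-07). Leukocyte markers, which would come with white blood cells, summed to 1.98 to 2.95 CPM in control static and 3.997 to 4.34 CPM in DKO static libraries over 8 genes, and to 2.41 to 3.46 and 3.26 to 3.92 CPM under FFSS. Lyz2 made up most of this sum in DKO cells, at 2.13 ± 0.109 CPM in static cells, against 0.595 ± 0.159 CPM in control static cells. Coro1a, like Lcp1, had a lower mean in DKO cells. Without FFSS it was at 1.28 ± 0.256 CPM in control and at 0.734 ± 0.329 CPM in DKO cells, and at 0.974 ± 0.356 and 0.476 ± 0.177 CPM under FFSS. Ptprc, which encodes the pan-leukocyte antigen CD45, had 0 to 1 counts in control static, 2 to 3 in each control FFSS library, 0 in every DKO static library and 0 to 3 under FFSS in DKO cells. Tyrobp was at 0 in all libraries but those of DKO FFSS cells, where it reached 1 count. The part of white blood cells in the Lcp1 counts was not tested.

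Capg and Destn, which act on filament ends and turnover, differed from each other. Capg was at 134, 149 and 150 CPM in control static and 85.6, 76.8 and 82.9 CPM in DKO static libraries, without overlap (log2 ratio −0.82, SE 0.09, edgeR adjusted p = 2.88e-06). Under FFSS it was at 146, 124 and 116 CPM against 73.5, 86.0 and 73.8 CPM (log2 ratio −0.73, SE 0.09, edgeR adjusted p = 9.44e-06), and the groups were again apart. The group means of Destn lay closest together of the 8 members tested. Its mean CPM was 291 ± 2.22 in static and 308 ± 17.5 in FFSS control cells, and 316 ± 19.7 in static and 322 ± 3.802 in FFSS DKO cells (SD, n = 3), and neither genotype comparison passed (log2 ratios 0.12 and 0.06, edgeR adjusted p = 0.104 and 0.383). Without control FFSS replicate 1, which is in neither static group but shares the fit, the static difference of Destn was 0.12 (edgeR adjusted p = 0.0307), and it also passed in a fit of the 6 static libraries alone (edgeR adjusted p = 0.0153).

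Cofilin-1 (Cfl1), the abundant relative of destrin, was lower in DKO cells by a log2 difference of −0.40 in static cells and −0.37 under FFSS (edgeR adjusted p = 1.07e-05 and 2.23e-05). The share of destrin in the summed level of Destn, Cfl1 and Cfl2 per kilobase was therefore 17.9 to 18.8% in control static and 23.8 to 26.0% in DKO static libraries, and 17.7 to 19.7% against 23.3 to 23.9% under FFSS. These shares did not overlap between the genotypes, although Destn itself did not pass the test.

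Gja1 did not pass the test in static cells. It was at 383, 326 and 391 CPM in control static and 369, 372 and 361 CPM in DKO static libraries, with a log2 difference of 0.00 (SE 0.25, edgeR adjusted p = 0.999). With the share of reads outside genes as a covariate the difference was 0.52 (edgeR adjusted p = 0.00167). Under FFSS it was at 400.4, 178 and 203 CPM in control and 402, 398 and 384 CPM in DKO libraries (log2 difference 0.60, SE 0.25, edgeR adjusted p = 0.0688). The control libraries overlapped those of DKO cells through replicate 1 alone. Without that library the difference under FFSS was 1.05 (edgeR adjusted p = 3.16e-13), and it also passed with DESeq2, limma-voom, the replicate block and the covariate, or in 5 of 21 alternatives. Among other connexins, Gja3, which encodes connexin 46, was higher in DKO cells by 3.72 in static cells and 4.60 under FFSS on the log2 scale (edgeR adjusted p = 2.11e-08 and 6.38e-09), from 0.665 ± 0.112 to 8.87 ± 1.57 CPM in static cells.

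**Figure D3:**
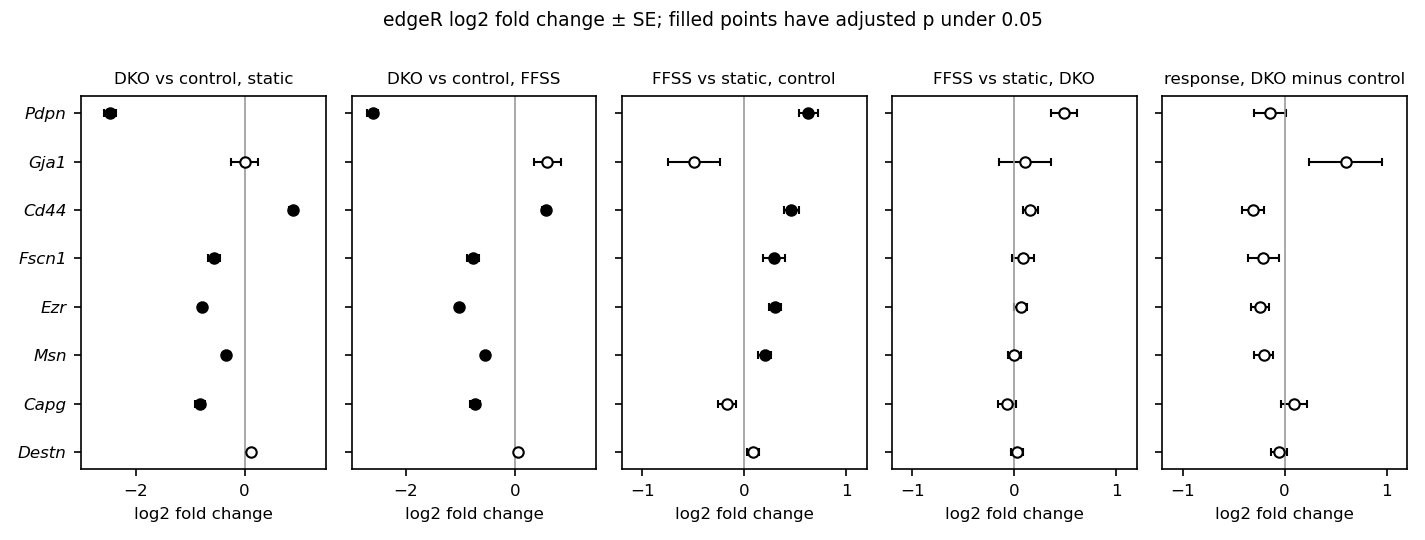
Log2 fold change ± SE from edgeR for the 8 members tested, in each of the 5 comparisons, with filled points where the adjusted p was under 0.05 (the scale differs between the genotype and the FFSS panels). Both genotype panels show 5 members lower and Cd44 higher, and of the other panels that of FFSS in control cells has 5 filled points and the rest have 0.

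The second question was whether FFSS changed these genes. In control cells Pdpn, Cd44, Ezr, Msn and Fscn1 rose, each by less than 2-fold, and Gja1, Capg and Destn did not pass. That is 5 of 8 members higher and 0 lower with edgeR, against 17.7% of all tested genes higher and 18.1% lower, and 0 of 8 called, against 5.93%. Of the 5 members, Fscn1 was at an edgeR adjusted p of 0.0499 with overlapping groups, and it passed in 5 of 21 alternatives. The median log2 change was 0.25 over the members and 0.01 over all tested genes. In DKO cells 0 of 8 members passed in either direction, against 0.376% of all tested genes higher and 0.497% lower, and 0 were called, against 0.0872%. At an unadjusted p under 0.05 with edgeR, 1 of the 8 (Pdpn, higher) passed in DKO cells, against 6.16% of all tested genes higher and 7.36% lower at that threshold, and DESeq2 and limma-voom gave 0 members past the adjusted threshold. A fit of the 6 DKO libraries alone gave 2 members higher, Pdpn (edgeR adjusted p = 0.00844) and Cd44 (edgeR adjusted p = 0.0114), against 5.54% of all genes tested in that fit. With control FFSS replicate 1 left out, 7 of the 8 members passed in control cells, 5 higher and 2 lower, against 26.7% of all tested genes higher and 28.3% lower, and 1 member, Pdpn, was higher in DKO cells, against 4.83%.

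Pdpn had the largest change of the members that rose in control cells. Its static level of 27.6 to 29.3 CPM became 40.1 to 51.2 CPM, a 1.55-fold rise without overlap (log2 ratio 0.63, SE 0.10, edgeR adjusted p = 0.00039). In DKO cells it was at 4.997 to 5.28 CPM in static and 6.60 to 7.96 CPM in FFSS libraries, a ratio of 1.40, with all 3 FFSS libraries above all static ones (log2 difference 0.49, SE 0.13, edgeR adjusted p = 0.0886). This difference passed in 4 of 21 alternatives, which were the fit of the 6 DKO libraries, the fits without control FFSS replicate 1 (0.49, edgeR adjusted p = 0.0151) and without control FFSS replicate 2 (0.49, edgeR adjusted p = 0.0271), and that with the share of reads outside genes as covariate (0.45, edgeR adjusted p = 0.0405). The difference between these responses was −0.14 on the log2 scale (SE 0.16, edgeR adjusted p = 0.617). From the lowest to the highest group, Pdpn stood in the order DKO static, DKO FFSS, control static and control FFSS, and the ranges of neighbouring groups did not overlap.

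Cd44 rose in control cells from 238 to 261 CPM in static to 313 to 383 CPM in FFSS libraries, 1.38-fold (log2 ratio 0.46, SE 0.07, edgeR adjusted p = 0.000549). In DKO cells it was at 444 to 476 CPM in static and 484 to 519 CPM in FFSS libraries, with a log2 difference of 0.15 (SE 0.07, edgeR adjusted p = 0.387). The FFSS libraries lay above the static ones in both genotypes. The interaction, the response of DKO cells minus that of control cells, was −0.31 (SE 0.10, edgeR adjusted p = 0.109), and −0.36 without control FFSS replicate 1 (edgeR adjusted p = 0.000723).

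Ezr rose in control cells by a log2 change of 0.31 (SE 0.06, edgeR adjusted p = 0.00205) and Msn by 0.20 (SE 0.07, edgeR adjusted p = 0.0302), with all 3 FFSS above all 3 static libraries for both. The rise of Ezr was not past the test in 1 of 21 alternatives, with the share of reads outside genes as covariate (0.18, edgeR adjusted p = 0.127). The rise of Msn was not past it in 6 of 21. These were the fits without any 1 of the 3 control static libraries (edgeR adjusted p between 0.0658 and 0.0861), without control FFSS replicate 2 (edgeR adjusted p = 0.129), of the 6 control libraries alone (edgeR adjusted p = 0.140) and with the covariate (0.064, edgeR adjusted p = 0.652). In DKO cells the log2 differences were 0.06 and −0.00, with overlapping groups. For Fscn1 the control FFSS group overlapped the static one, because replicate 1, at 496 CPM, was below all static libraries while replicates 2 and 3 were at 683 and 719 CPM. Its log2 ratio of 0.29 (SE 0.11) had an adjusted p of 0.0499 with edgeR and was not past the test in 16 of 21 alternatives. Without control FFSS replicate 1 it was 0.44 (edgeR adjusted p = 3.16e-08).

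**Figure D4:**
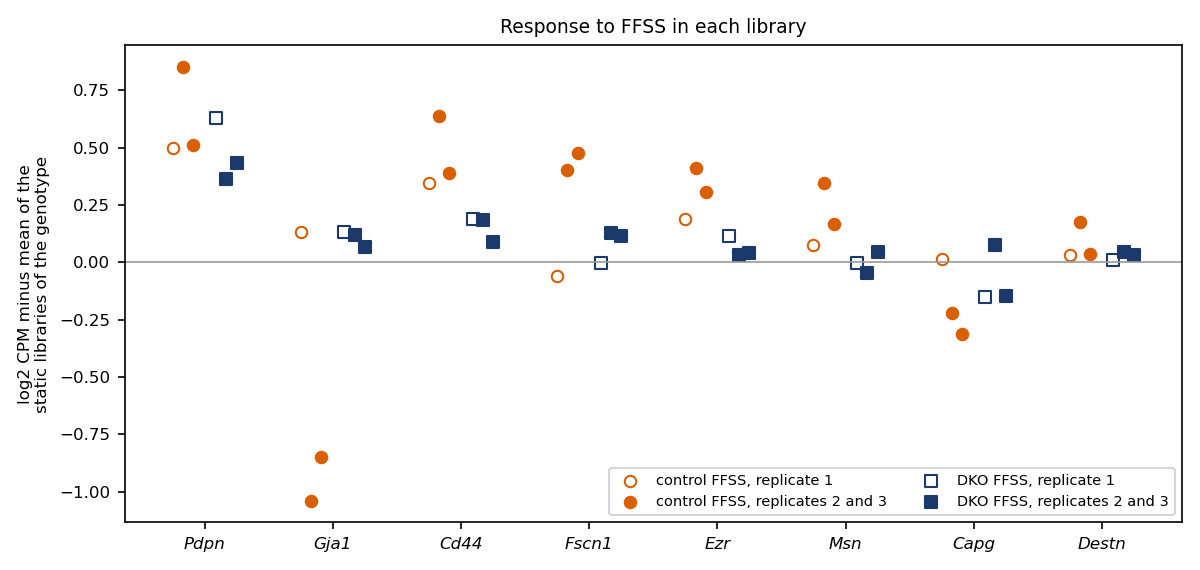
For each FFSS library, log2 CPM (prior count 2) minus the mean of the static libraries of its genotype, with circles for control, squares for DKO, and open symbols for replicate 1. Control replicate 1 lies at 0.13 for Gja1 and −0.06 for Fscn1, whereas control replicates 2 and 3 lie at −1.04 and −0.85 for Gja1 and at 0.40 and 0.47 for Fscn1.

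Gja1 showed the widest spread of any member in control FFSS cells, with a coefficient of variation of 46.7%, against 1.54 to 9.63% in the other groups. Replicates 2 and 3 held 178 and 203 CPM, below the lowest static library at 326 CPM, and replicate 1 held 400.4 CPM, above the highest at 391 CPM. Over all 3 libraries the log2 difference was −0.49 (SE 0.25, edgeR adjusted p = 0.157). Without replicate 1 the log2 change was −0.94 (edgeR adjusted p = 7.38e-12). With the share of reads outside genes as covariate the sign turned, to 0.27, and the difference did not pass. In DKO cells the 3 FFSS libraries were within 384 to 402 CPM and lay above the static range of 361 to 372 CPM, a log2 difference of 0.11 (SE 0.25, edgeR adjusted p = 0.923). With the share of reads outside genes as covariate it was 0.39 (edgeR adjusted p = 0.0282).

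Capg followed the same split between control FFSS libraries, at 146 CPM in replicate 1 and 124 and 116 CPM in replicates 2 and 3, beside 134 to 150 CPM in static libraries. Its log2 difference was −0.17 (SE 0.09, edgeR adjusted p = 0.151) with all libraries and −0.27 (edgeR adjusted p = 0.00104) without replicate 1. The covariate of reads outside genes turned its sign, to 0.071, which did not pass. Gelsolin (Gsn), the related severing protein, fell by 0.99 in control cells (SE 0.28, edgeR adjusted p = 0.0227), and its mean CPM was 834 ± 1.33 without and 421 ± 219 with FFSS. Without control FFSS replicate 1 the log2 change was −1.501 (edgeR adjusted p = 3.44e-19). Capg was therefore 16.6 to 18.2% of the summed level of both per kilobase in control static and 21.2, 35.7 and 31.5% in control FFSS replicates 1 to 3. In DKO cells this share was 14.3 to 14.6% in static and 14.8 to 17.3% in FFSS libraries. For Destn the control FFSS libraries lay above the static ones by a log2 difference of 0.08 (edgeR adjusted p = 0.279), and by 0.21 with scaling to library totals alone (edgeR adjusted p = 0.0227), which moved the median of all genes to 0.13.

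The difference between the responses of the genotypes was tested directly as the interaction. With edgeR, 0 of 8 members passed, against 2.28% of all tested genes higher and 1.68% lower, and 0 were called, against 0.651%. At an unadjusted p under 0.05, 3 of the 8 (Cd44, Ezr and Msn) had a negative value, against 12% of all tested genes lower and 11.7% higher, and DESeq2 and limma-voom gave 0 members past the adjusted threshold as well. The median over the members was −0.17, beside −0.02 over all tested genes. Without control FFSS replicate 1, 5 of the 8 passed, 1 higher and 4 lower, against 19.9% of all tested genes higher and 17.7% lower in that fit. These were Gja1 (1.05, edgeR adjusted p = 5.21e-10), Cd44 (−0.36, edgeR adjusted p = 0.000723), Fscn1 (−0.36, edgeR adjusted p = 0.000175), Ezr (−0.30, edgeR adjusted p = 0.00179) and Msn (−0.26, edgeR adjusted p = 0.00269). The share of reads outside genes, the measure in which that library also stands apart, was higher in each FFSS library than in the static libraries of its genotype. With this share as a covariate, 2 members passed in control cells, Pdpn and Cd44, both higher, against 6.86% of all tested genes higher and 8.51% lower, while Ezr and Msn did not and Fscn1 was at −0.16. The rises of Pdpn and Cd44 in control cells were past the test in all 21 alternatives (log2 changes of at least 0.50 and 0.37, edgeR adjusted p of at most 0.0128 and 0.0184). In DKO cells 2 members passed with the covariate, Pdpn and Gja1, against 5.02% higher and 4.93% lower.

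Members differed in how they moved together. Over the 12 libraries the log2 CPM of Ezr correlated with that of Pdpn (Pearson r = 0.99), Msn (r = 0.98) and Fscn1 (r = 0.95), while Cd44 correlated negatively with Capg (r = −0.93) and Pdpn (r = −0.77). These are descriptions, since the libraries share genotype, treatment and scaling. Each library was also taken as its deviation from its group mean. Ezr was then at r = 0.85 with Pdpn, 0.82 with Msn and 0.61 with Fscn1. Fscn1 was at 0.62 with Msn but at 0.23 with Pdpn, beside 0.96 and 0.93 over the libraries, and Msn and Pdpn were at 0.76. Cd44 and Capg were at −0.17, and Fscn1 and Gja1 at −0.91, beside −0.77 over the libraries. The sign turned for several pairs of members. Among them were Cd44 with Pdpn (−0.77 to 0.62), Ezr (−0.75 to 0.63), Msn (−0.68 to 0.58) and Fscn1 (−0.67 to 0.29). Capg turned the other way with Pdpn (0.89 to −0.33), Ezr (0.87 to −0.49), Msn (0.81 to −0.43) and Fscn1 (0.78 to −0.43).

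By the Pearson correlation of log2 CPM over the 12 libraries, the gene most alike to each member among 9722 candidates was Mcl1 for Pdpn (r = 0.995), Ubl4 for Gja1 (0.981), Scyl3 for Cd44 (0.990), Tars2 for Fscn1 (0.994), Rbms1 for Ezr (0.996), Cyba for Capg (0.989) and Ptbp2 for Destn (0.894). For Msn the most alike gene was Eps8 (0.995), which encodes a capping and bundling protein of actin protrusions and was on the lists of related genes. Eps8 went from 56.5 ± 1.01 CPM in control static to 80.1 ± 15.2 CPM in control FFSS cells and was at 33.9 ± 2.23 CPM in DKO static and 35.3 ± 1.24 CPM in DKO FFSS cells. The number of candidates above 0.95 ranged from 0 for Destn and 42 for Gja1 to 442 for Pdpn and 464 for Ezr. With group means removed the correlation was 0.13 for Mcl1 and Pdpn, and between 0.75 for Scyl3 and Cd44 and 0.98 for Ubl4 and Gja1 in the other 7 pairs.

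Per kilobase of exon, the order of level of the members differed between the genotypes, apart from Ezr, Pdpn and Lcp1, which had the lowest means in every group. The length covers all annotated exons, so members with many transcripts, such as Cd44 (14) and Lcp1 (11), may be placed too low. In control static cells it was Fscn1 (172 ± 6.56), Destn (152.3 ± 1.16), Msn (137 ± 1.01), Gja1 (118 ± 11.4), Capg (57.1 ± 3.64), Cd44 (36.0 ± 1.83), Ezr (34.8 ± 0.327), Pdpn (15.6 ± 0.466) and Lcp1 (0.0423 ± 0.0165 CPM per kilobase, SD, n = 3), and of neighbours only Cd44 and Ezr overlapped in range. In DKO static cells Destn came first (165.2 ± 10.3), followed by Gja1, Fscn1 and Msn, of which Gja1 and Fscn1, and Fscn1 and Msn, overlapped in range. Cd44 (66.5 ± 2.56) stood above Capg (32.3 ± 1.78) there, and Pdpn (2.81 ± 0.0823) and Lcp1 were again the lowest.

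The members belong to a wider set of genes that were listed by function, 101 further IDs of which 86 were tested. In static cells 17 of the 86 were higher and 32 lower in DKO cells (19.8% and 37.2%, beside 27.0% and 27.2% of all tested genes), and 12 were called (14.0%, beside 15.3%). Under FFSS 23 were higher and 40 lower (26.7% and 46.5%, beside 27.0% and 29.6%), and 13 were called (15.1%, beside 17.2%). Fmnl2, a formin that lengthens actin filaments in protrusions, was the third gene named by rule, with log2 differences of 2.39 and 2.88 (edgeR adjusted p = 1.22e-07 and 3.16e-08) and a mean of 60.0 ± 4.07 CPM in control static and 314 ± 33.4 CPM in DKO static cells. Among bundling and protrusion tip genes other than Fscn1, 6 of 12 tested were lower and 2 higher in DKO static cells, and among the ezrin, radixin and moesin group other than Ezr and Msn, 2 of 9 were lower and 1 higher. Of the 23 tested genes of actin nucleation and monomer supply, which hold no member, 7 were lower and 6 higher. Without their members, the list of podoplanin, CD44 and hyaluronan had 6 of 12 lower and 2 higher. Connexins, pannexins and ZO-1 had 3 of 8 lower and 2 higher. The gelsolin family with capping genes had 4 of 11 lower and 1 higher, and ADF/cofilin with its regulators 4 of 11 lower and 3 higher.

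In control cells FFSS raised 20 and lowered 20 of the 86 further genes with edgeR, 23.3% each way beside 17.7% and 18.1% of all tested genes, and in DKO cells 0 passed, beside 0.376% and 0.497%. Without control FFSS replicate 1 the counts were 28 higher and 31 lower in control cells and 6 higher and 9 lower in DKO cells, in a fit where 26.7% and 28.3% of all tested genes passed in control cells and 4.83% and 5.66% in DKO cells. The 3 called in control cells are 3.49% of the 86, beside 5.93%, and without that library 9 were called, beside 11.3%. The 3 called with all libraries had an average level below that of the rule for named genes and are named after their values were seen. They were Podxl, a partner of the ezrin scaffold (log2 ratio −1.54, edgeR adjusted p = 0.000366), Has3, a hyaluronan synthase (1.41, edgeR adjusted p = 0.00255), and Fscn2, a fascin best known from the retina (1.57, edgeR adjusted p = 0.015). The interaction passed for 4 of the 86, 1 higher and 3 lower (1.16% and 3.49%, beside 2.28% and 1.68% of all tested genes), likewise named after their values were seen. Without control FFSS replicate 1 it passed for 27 higher and 17 lower, beside 19.9% and 17.7% of all tested genes, and 6 were called, against 0 with all libraries, beside 7.6% and 0.651%. Slc9a3r1, which encodes the ezrin-binding scaffold NHERF1, was at 0.47, and Stk10, a kinase that phosphorylates ezrin and moesin, at −0.42 (edgeR adjusted p = 0.0251 and 0.035). Svil, a gelsolin relative, was at −0.42, and Pfn2, a profilin that binds actin monomers, at −0.40 (edgeR adjusted p = 0.048 and 0.0171). Like Ezr and Msn, Stk10 was higher with FFSS in control cells, from 55.5 ± 1.09 to 81.3 ± 7.27 CPM. In DKO cells it was at 50.6 ± 2.65 and 55.6 ± 1.90 CPM without and with FFSS (SD, n = 3). Between static genotypes Stk10 did not pass (−0.13, edgeR adjusted p = 0.135), whereas Ezr and Msn did.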

How the data were processed

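From total RNA of Ocy454 cells the authors isolated mRNA, made 12 libraries and sequenced single-end reads, which they aligned with STAR to mm9 with Ensembl annotation and counted per gene with HTSeq. The deposited values are raw counts per gene ID, neither normalised nor filtered, and 37168 of 37583 IDs (98.9%) matched a symbol in an mm9 annotation. The 5 summary lines of HTSeq were kept out of totals and tests. Genes at 0 in 2 or more libraries were removed, as in the study's methods, and robust quasi-likelihood fits of all 12 libraries as 4 groups were made with edgeR 4.0.16 (TMM) in R 4.3.3, with Benjamini-Hochberg adjustment over all 14904 genes. Genes past an adjusted p of 0.05 passed, and those also over 2-fold were called. CPM use TMM-scaled totals, and log2 CPM a prior count of 2. Alternatives included DESeq2 1.42.0 and limma 3.58.1 (voom). Scripts were tested on simulated data. The members, gene lists and tests were chosen with earlier results of these data known. Named genes are all members, 4 osteocyte markers, the targeted genes, the 3 called genes of the lists with the largest change per comparison above an average log2 CPM of 1, relatives of members, and the gene most alike to each member above an average log2 CPM of 3. No protein sequences were used here.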

Additional observations from a re-analysis of the deposited data

How the results depend on the processing

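The number of members past the test was 6 in both genotype comparisons and stayed between 6 and 8 in static and 6 and 7 in FFSS cells in the 21 alternatives of each, some of which also tested Lcp1. For FFSS in control cells the 5 members became 3 in a fit of the 6 libraries compared, 2 with the share of reads outside genes as covariate, and 3 to 7 when 1 library was left out. For FFSS in DKO cells the 0 members became 2 in the 6 libraries compared (Pdpn and Cd44), 2 with the covariate (Pdpn and Gja1), and 0 to 1 when 1 library was left out. For the interaction the 0 members became 0 to 5, with 5 only without control FFSS replicate 1. Replicate numbers did not pair the libraries (mean correlation of deviations 0.00226 for equal and −0.00116 for unequal numbers). With the replicate number as a block, 5, 0, 0, 6 and 7 members passed in the same order of FFSS in control, FFSS in DKO, interaction, static and FFSS genotype comparisons, the added one being Gja1 under FFSS (edgeR adjusted p = 0.0392).

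Signs turned only for log2 values near 0 or not past the test, apart from Fscn1 with FFSS in control cells, at −0.16 with the covariate. The covariate also turned, for FFSS in control cells, Gja1 to 0.27 and Capg to 0.071, for FFSS in DKO cells Fscn1 to −0.062 and Capg to 0.0082, and for the interaction Fscn1 to 0.093 and Capg to −0.063. Library totals alone, which moved the median of all genes to 0.13 for FFSS in control cells and −0.25 between genotypes under FFSS, turned Capg in the interaction to −0.015, Gja1 between static genotypes to −0.081 and Destn between genotypes under FFSS to −0.14. Msn with FFSS in DKO cells became 0.0015 with RLE factors and with DESeq2, 0.0047 in the 6 libraries, 0.0099 with library totals, and −0.025 to 0.022 when 1 library was left out. Likewise Destn with FFSS in DKO cells ranged from −0.0040 to 0.080, and Gja1 between static genotypes from −0.078 to 0.049. The cause of these changes was not tested. All other results with 1 library left out kept their sign, as did all others under the remaining settings. At this depth Lcp1, with 0 to 17 counts per library, is the member whose values are limited by counting.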
